A study of Rattus norvegicus with 6 samples.

Results

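The genes described here are those that turn a licensed replication origin into a running fork: the 4 GINS subunit genes Gins1, Gins2, Gins3 and Gins4, the helicase cofactor gene Cdc45, the kinase pair Cdc7 and Dbf4, and the scaffold and adaptor genes Topbp1, Wdhd1 and Tipin. They were chosen by name, as the spots whose gene name on the array equalled one of these symbols. All 10 genes were on the array, with 12 probes between them, out of 36174 names and 45598 probes. Gins2 and Dbf4 had a second probe each.

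A replication origin is first licensed by loading the MCM2-7 ring, which is inactive on its own. At the start of S phase the kinase CDC7, switched on by its partner DBF4, phosphorylates MCM2-7, and CDC45 and the GINS complex then join the ring to form the active CMG helicase, a step for which TOPBP1 serves as a scaffold. WDHD1 (also called AND-1) tethers DNA polymerase alpha to the helicase, and TIPIN works with TIMELESS to protect and pace the fork. Transcripts of many replication genes rise from late G1 into S phase in cycling cells, whereas adult β-cells divide rarely.

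The arrays, 6 in all and labelled with a single dye, compared replicating with quiescent β-cells, 3 arrays each. Islets of young adult male Wistar rats, pooled from 4 animals in each of 3 preparations, were cultured overnight with the thymidine analogue EdU, dispersed and fixed with paraformaldehyde. Cells high in size, granularity and the zinc dye Newport Green were sorted as β-cells, and each preparation gave 1 EdU+ fraction (replicating) and 1 EdU- fraction (quiescent). EdU culture, fixation, sorting and whole transcriptome amplification were shared by both groups, no allele or drug distinguished them, and the EdU+ fraction held far fewer cells. EdU+ cells are defined by DNA synthesis during the culture and may have left S phase by the time of the sort, so the groups are not cells at a fixed stage.

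Of the arrays, 80.8 to 87.3% of probes were well above background on the replicating arrays and 85.7 to 98.5% on the quiescent arrays. The replicating arrays had a lowest correlation with an array of their own group of 0.967 to 0.970 and the quiescent arrays of 0.655 to 0.831, the lowest being that between preparations 2 and 3. All 7 cycling cell markers (Mki67, Top2a, Pcna, Ccnb1, Cdk1, Rrm2 and Tyms) were called higher in the replicating samples, with a median log2 ratio of 3.33. Their summed level was 25237 to 26609 on the replicating arrays and 2687 to 7493 on the quiescent arrays. All 9 β-cell markers tested were well above background on every array. Their median log2 ratio was -0.57, with 3 of 9 ratios above 0 (Ins1, Ins2 and Iapp), 0 called higher and 1 (Mafa) called lower. Their summed levels, 256444 to 323229 on the replicating and 160058 to 356774 on the quiescent arrays, overlapped.

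A gene was called when its unadjusted p in the paired limma test did not exceed 0.05 and its log2 ratio was 1 or more in either direction, the cut-offs that the study used. All 10 genes had a fitted ratio above 0, beside 15565 of all 36174 names. Of the 10, 7 were called higher in replicating β-cells: Gins1, Gins3, Gins4, Cdc45, Cdc7, Dbf4 and Wdhd1. None was called lower, and Gins2, Topbp1 and Tipin were not called. Over all names on the array 4.35% were called higher by the same rule and 4.88% lower. The fitted log2 ratios ran from 0.18 to 3.56 with a median of 1.69, against a median of -0.11 over all names. After Benjamini-Hochberg adjustment in limma over the 45598 probes, 0 of the 10 genes passed 0.05 (adjusted p from 0.136 to 0.810), as did 0 of all probes, although 4542 probes (9.96%) had an unadjusted p of at most 0.05. These are bulk samples, in which more cells with a transcript and more transcript per cell cannot be told apart.

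**Figure D1:**
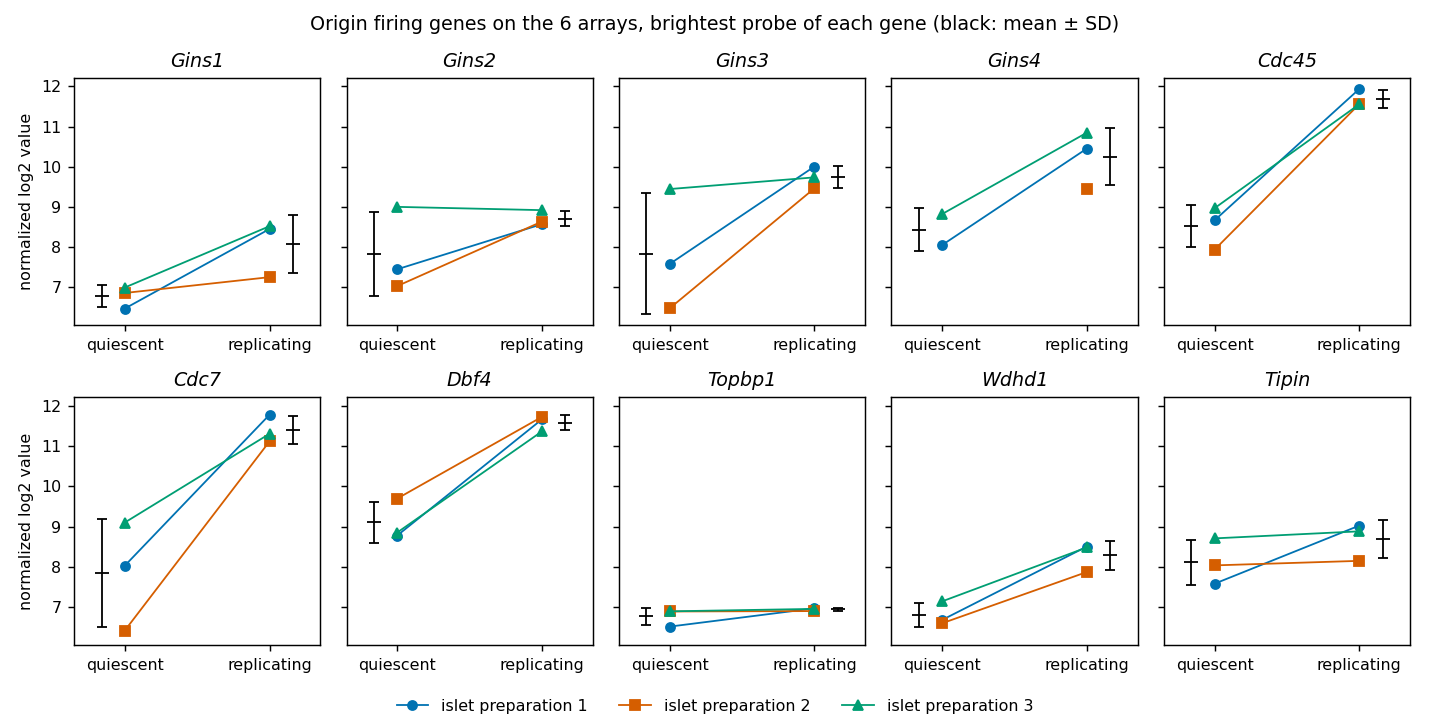
Normalized log2 value of the brightest probe of each gene (vertical axis) on the quiescent and replicating arrays (horizontal axis), lines joining the samples of a preparation and black bars giving mean ± SD. Cdc45, Cdc7 and Dbf4 stand at 11.12 or more on every replicating array and at 9.70 or less on every quiescent array, Topbp1 is level near 7, and the Gins4 probe has no value in quiescent preparation 2.

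All 12 probes were well above background on all 6 arrays. Where a gene had more than 1 probe, the probe with the highest mean level stands for it. Of the 10 genes, 8 had every replicating array above every quiescent array (8.71% of all names did), the exceptions being Gins2 and Tipin. In all 3 preparations the ratio was above 0 for 8 genes (14.4% of all names), and in all 3 it was above 1 for 4 genes, Cdc45, Cdc7, Dbf4 and Wdhd1 (460 of all 36174 names). Gins4 had no ratio in preparation 2 and so could not enter either count. The median ratio was 2.19 over the 10 genes in preparation 1, 1.61 without Gins4 in preparation 2 and 1.44 over the 10 genes in preparation 3.

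The GINS complex, a ring-like assembly of 4 subunits, had 3 of its 4 genes called higher, with a median log2 ratio of 1.60. Gins4 encodes the subunit also called SLD5. Its probe (rn4 chr16:73257037-73257096) read a log2 value of 10.46, 9.46 and 10.85 for the replicating samples of preparations 1, 2 and 3, and 8.05 and 8.82 on the quiescent arrays of preparations 1 and 3. The spot of quiescent preparation 2 was marked as an outlier and left out, so the fitted ratio rests on preparations 1 and 3, which gave 2.40 and 2.03. The fitted ratio was 2.21 (SE 0.44, 95% confidence interval 1.05 to 3.38), a fold of 4.64, with an unadjusted p of 0.0053 and an adjusted p of 0.469 in limma. With the outlier spot kept it was 1.66, still called.

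Gins3, which encodes the subunit PSF3, was high and even on the replicating arrays and uneven on the quiescent ones. Its probe (rn4 chr19:9876694-9876753) read 10.01, 9.47 and 9.74 on the replicating arrays and 7.58, 6.48 and 9.45 on the quiescent ones, in log2 and in the order of the preparations. Every replicating value lay above every quiescent one, but by only 0.02 at the closest, because quiescent preparation 3 came close to the replicating samples. The fitted log2 ratio was 1.90 (SE 0.59, interval 0.42 to 3.38), a fold of 3.74, from ratios of 2.43, 2.99 and 0.29 in the 3 preparations.

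Gins1, which encodes PSF1, gave log2 values of 8.45, 7.25 and 8.52 on the replicating arrays and 6.47, 6.86 and 6.99 on the quiescent arrays (rn4 chr3:141557234-141557293). The groups did not overlap, and preparation 2 was the low one among the replicating samples. The fitted log2 ratio was 1.30 (SE 0.43, interval 0.23 to 2.37), a fold of 2.46, from ratios of 1.98, 0.39 and 1.53. Of the called genes this was the smallest ratio, and its call was lost without preparation 1 (0.96) and without preparation 3 (1.19), with unadjusted p of 0.188 and 0.0858 in limma. It was also lost when arrays were scaled to the 75th percentile, at 0.94 on normexp-corrected and 1.32 on processed signals.

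Gins2, which encodes PSF2, was the GINS gene that was not called. Its brighter probe (rn4 chr19:50915139-50915198) read 8.57, 8.64 and 8.92 on the replicating arrays and 7.45, 7.03 and 9.00 on the quiescent arrays, so quiescent preparation 3 was above every replicating sample. Its second probe (rn4 chr19:50918540-50918875, a genomic span of 336 bases, longer than the probe itself) read 8.36, 8.46 and 8.98 against 7.48, 8.96 and 7.38, with quiescent preparation 2 as the high one. The preparation with no excess in the replicating sample was thus not the same for both probes: the log2 ratios were 1.12, 1.61 and -0.08 for the brighter probe and 0.88, -0.50 and 1.60 for the other. The fitted ratios were 0.88 (SE 0.44, interval -0.21 to 1.98) and 0.66 (SE 0.49, interval -0.57 to 1.89), and without preparation 3 the brighter probe was called, at 1.37. Without that preparation 11.6% of all probes were called higher, against 4.57% with all 3 preparations. The first 30 of the 60 bases of each probe are given to show that the 2 read different stretches of the transcript.
Gins2, brighter probe: ggcacgttcagtttgcaatttgtaagcttc
Gins2, other probe: cagcaagaggcacatgctaagctggacaac

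CDC45 binds MCM2-7 together with GINS and is taken up when an origin fires. Cdc45 had 2 spots of 1 probe, placed by the files on rn4 chromosome 11_random, positions 1221816 to 1221875. It read 11.94, 11.56 and 11.56 on the replicating arrays and 8.67, 7.94 and 8.97 on the quiescent arrays, in log2. The groups were far apart, the lowest replicating value being 2.59 above the highest quiescent one. The ratios were 3.27, 3.63 and 2.59 and the fitted ratio was 3.16 (SE 0.36, interval 2.25 to 4.08), a fold of 8.95. Its adjusted p of 0.136 in limma with Benjamini-Hochberg adjustment was the smallest of the 10 genes, at an unadjusted p of 0.000218.

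The DBF4-dependent kinase had both its genes called higher. Cdc7, the catalytic subunit, had the largest fitted ratio of the 10 genes. Its probe (rn4 chr14:3421680-3421739) read 11.78, 11.12 and 11.31 on the replicating arrays and 8.02, 6.41 and 9.10 on the quiescent arrays. The replicating samples lay close together, and the quiescent ones were spread widely, with preparation 2 lowest and preparation 3 highest. The log2 ratios were 3.76, 4.71 and 2.21, and the fitted ratio was 3.56 (SE 0.54, interval 2.20 to 4.92), a fold of 11.8, with an adjusted p of 0.244 in limma.

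Dbf4, the activating subunit, was measured by 2 probes. The brighter one (rn4 chr4:22530120-22530600, a genomic span of 481 bases) read 11.67, 11.73 and 11.37 on the replicating arrays and 8.78, 9.70 and 8.85 on the quiescent arrays. The other (rn4 chr4:22522820-22522879) read 9.05, 9.88 and 9.13 against 7.31, 7.00 and 7.17. Both separated the groups in every preparation, and they differed over preparation 2, where the ratio was lowest for the brighter probe (2.03, beside 2.89 and 2.52) and highest for the other (2.88, beside 1.74 and 1.96). The fitted log2 ratios were 2.48 (SE 0.35, fold 5.59) and 2.19 (SE 0.38, fold 4.56), and both were called, with adjusted p of 0.197 and 0.307 in limma. The first 30 of 60 bases of both probes are shown as for Gins2.
Dbf4, brighter probe: aaattaatacggatggcgataaatatggaa
Dbf4, other probe: ccaccctgtagtcctcaggagcctcatgag

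Among the scaffolds and adaptors, only Wdhd1 was called. Its probe (rn4 chr15:23195615-23195674) read 8.50, 7.87 and 8.48 on the replicating arrays and 6.67, 6.59 and 7.14 on the quiescent arrays, and the groups did not overlap. The ratios of 1.83, 1.28 and 1.34 were the most even among the called genes with values in all 3 preparations, and the fitted ratio was 1.48 (SE 0.33, interval 0.65 to 2.32), a fold of 2.80. The call was lost when processed signals were scaled to the 75th percentile (1.54, SE 0.76). Tipin (rn4 chr8:68499274-68502000, a genomic span of 2727 bases) read 9.02, 8.15 and 8.88 against 7.58, 8.03 and 8.70, and the groups overlapped. Its ratio was 1.45 in preparation 1 but 0.11 and 0.18 in the others, with a fitted value of 0.58 (SE 0.41, interval -0.45 to 1.61). The interval leaves room for a log2 ratio above 1 as well as for none.

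Topbp1 (rn4 chr8:108352138-108352197) had the smallest ratio. It read 6.96, 6.90 and 6.95 on the replicating arrays and 6.51, 6.89 and 6.89 on the quiescent arrays. The groups were formally apart, by under 0.01, but the values were near the bottom of the measured range: the lowest log2 value of any probe well above background was between 5.85 and 6.50 on the 6 arrays. The fitted ratio was 0.18 (SE 0.33, interval -0.64 to 0.99; unadjusted p = 0.612 in limma), and it turned to -0.32 and -0.81 when arrays were scaled to their 75th percentile, on normexp-corrected and on processed signals. Some quiescent values of called genes were also near the bottom of the range. In log2 they were 6.47 to 6.99 for Gins1 and 6.59 to 7.14 for Wdhd1. In preparation 2 they were 6.41 for Cdc7 and 6.48 for Gins3.

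**Figure D2:**
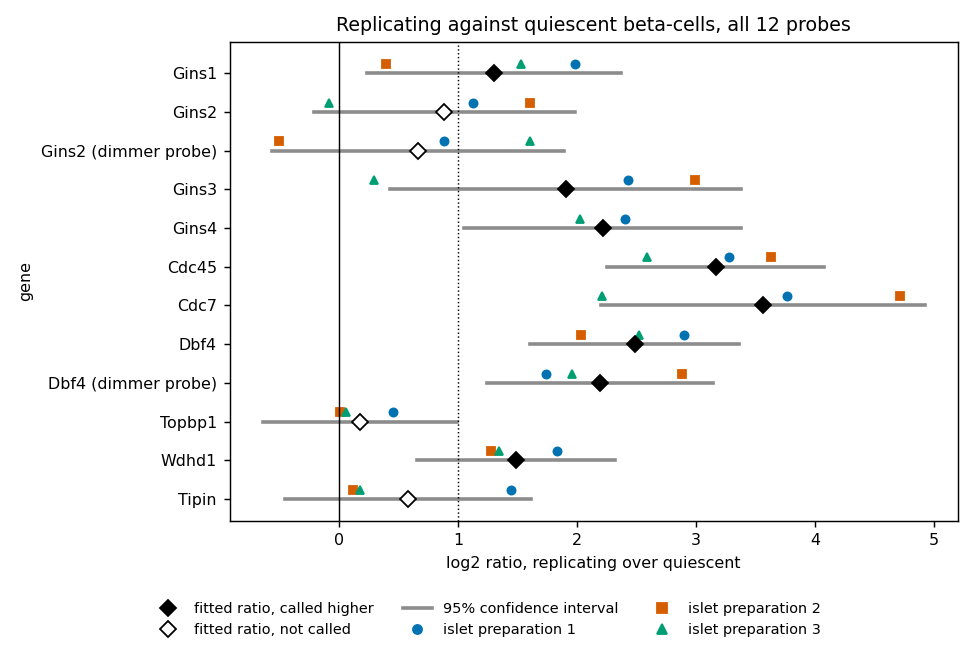
Log2 ratio of replicating over quiescent β-cells (horizontal axis) for the 12 probes of the 10 genes (vertical axis), coloured points giving each preparation, diamonds the fitted ratio and grey bars its 95% confidence interval. Cdc7 and Cdc45 have the largest fitted ratios, 3.56 and 3.16, and Gins2 and Topbp1 reach 0.01 or less in a preparation.

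From the largest fitted ratio down, the order was Cdc7, Cdc45, Dbf4, Gins4, Gins3, Wdhd1, Gins1, Gins2, Tipin and Topbp1. The 95% intervals of each pair of neighbours in this order overlapped. The interval of Cdc7 began at 2.20, above the ends of those of Gins2 (1.98), Tipin (1.61) and Topbp1 (0.99), but the difference between genes was not tested.

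The spread lay mostly on the quiescent side, as it did over the whole array. The SD, taken over 2 quiescent arrays for Gins4, was larger on the quiescent arrays for 7 of the 10 genes, with a median SD of 0.31 on the replicating and 0.54 on the quiescent arrays, beside 0.22 and 0.65 over the 44652 probes with all values. Among the 9 genes with a value on every array, that is without Gins4, preparation 3 held the highest quiescent value of 8 and preparation 2 that of Dbf4. The summed cycling cell markers did not share this order, since they were 2687, 7493 and 2712 on quiescent arrays 1, 2 and 3. The sum on quiescent array 2 was mostly Mki67, which read 10.29, 12.34 and 8.28 in log2 on the quiescent arrays. Taken singly, the markers were mixed: Mki67, Rrm2, Top2a and Cdk1 were highest on quiescent array 2, Pcna and Tyms on array 3 and Ccnb1 on array 1. The smallest ratio of the 9 genes with a value on every array fell in preparation 2 for 5 genes and in preparation 3 for 4.

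In preparation 2, 6 of the genes changed direction between the raw and the normalized scale or had no normalized value. Its arrays differed in raw brightness, with a median raw signal of 196 on the replicating and 557 on the quiescent array, and only 19.4% of all probes had the higher raw signal in the replicating sample, against 35.2% in preparation 1 and 63% in preparation 3. Before normalization, Cdc45, Cdc7, Dbf4 and Gins3 were the 4 genes whose raw signal was higher in the replicating sample of preparation 2 (Cdc45 1796 against 421, Cdc7 1283 against 121). For the other 6 it was higher in the quiescent sample, Gins1 for example reading 69.2 against 196. In preparation 1 the raw signal was higher in the replicating sample for 9 genes, all but Topbp1, and in preparation 3 for all 10.

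Leaving out preparation 1 cut the number of called genes from 7 to 3, the 3 being Cdc45, Cdc7 and Dbf4, while the share of all probes called higher went from 4.57% to 1.16%. The ratios of Gins3, Gins4 and Wdhd1 were then 1.64, 2.03 and 1.31, with unadjusted p of 0.118, 0.0967 and 0.0719 in limma. Without preparation 2, 7 genes were called, and Cdc45, Cdc7 and Dbf4 also had an adjusted p under 0.05. The 3 genes passed the call rule in each of the 14 alternatives, with ratios of 2.80 to 3.45 for Cdc45, 2.98 to 4.23 for Cdc7 and 2.28 to 2.71 for Dbf4.

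**Figure D3:**
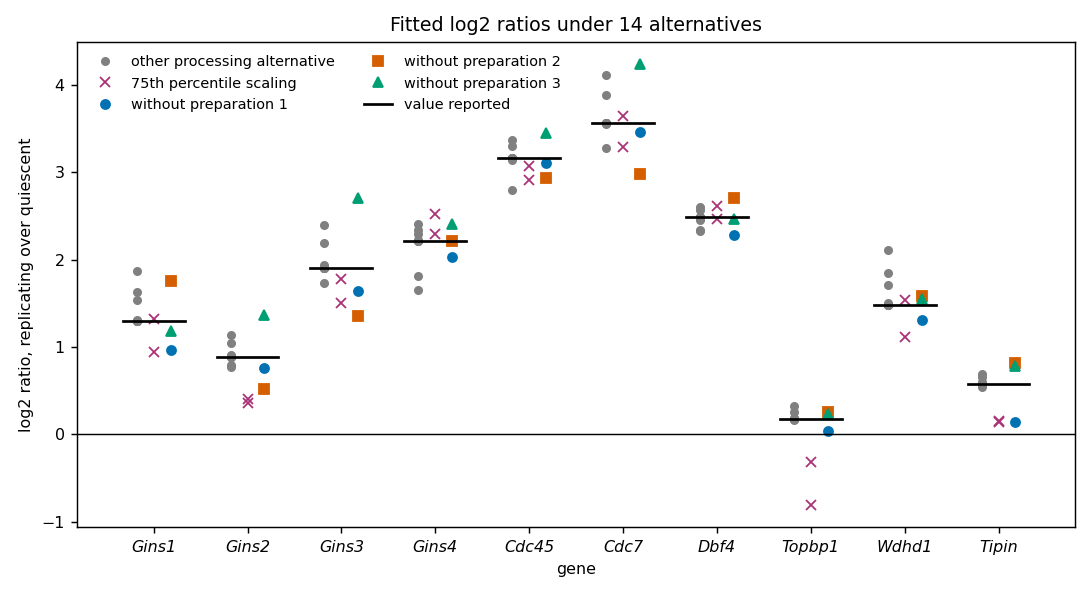
Fitted log2 ratio of replicating over quiescent β-cells (vertical axis) for each gene (horizontal axis) under the 14 alternatives, with the reported value as a black line. Cdc45, Cdc7 and Dbf4 stay above 2 throughout, and Topbp1 falls to -0.32 and -0.81 with 75th percentile scaling.

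The windows before the transcription start sites are printed for 4 of the genes, chosen to set called genes (Cdc45, Gins1 and Gins3) beside 1 that was not (Topbp1). Each is the 250 bases before an annotated start on the rat build GRCr8, from RefSeq, for 9 of the 10 genes matched by symbol. Capitals mark letters of 3 elements known from cell cycle promoters, searched on both strands: the E2F letters TTTCCCGC, TTTCGCGC, TTTGCCGC or TTTGGCGC, the CCAAT box CCAAT, and the cell cycle genes homology region (CHR) letters TTTGAA or TTCGAA. The windows are chr11:95689928-95690177 (plus strand) for Cdc45, chr3:160184670-160184919 (plus strand) for Gins1, chr19:9434680-9434929 (minus strand) for Gins3 and chr8:112766541-112766790 (plus strand) for the first of 3 Topbp1 starts.
Cdc45: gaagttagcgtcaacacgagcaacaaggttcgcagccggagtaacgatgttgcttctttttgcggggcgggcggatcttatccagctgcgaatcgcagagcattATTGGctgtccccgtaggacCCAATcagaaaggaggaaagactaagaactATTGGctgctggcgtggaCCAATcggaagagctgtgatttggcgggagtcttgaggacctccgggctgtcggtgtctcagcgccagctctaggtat
Gins1: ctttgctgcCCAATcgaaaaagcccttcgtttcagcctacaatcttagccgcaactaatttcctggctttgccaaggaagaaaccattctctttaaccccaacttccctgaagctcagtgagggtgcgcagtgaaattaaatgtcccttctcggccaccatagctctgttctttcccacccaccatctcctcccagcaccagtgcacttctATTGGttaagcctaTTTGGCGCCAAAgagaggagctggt
Gins3: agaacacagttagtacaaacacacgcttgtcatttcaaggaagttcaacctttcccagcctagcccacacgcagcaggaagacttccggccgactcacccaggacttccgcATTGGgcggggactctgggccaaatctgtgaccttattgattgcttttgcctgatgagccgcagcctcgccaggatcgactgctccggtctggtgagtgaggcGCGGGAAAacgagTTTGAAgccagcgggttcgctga
Topbp1: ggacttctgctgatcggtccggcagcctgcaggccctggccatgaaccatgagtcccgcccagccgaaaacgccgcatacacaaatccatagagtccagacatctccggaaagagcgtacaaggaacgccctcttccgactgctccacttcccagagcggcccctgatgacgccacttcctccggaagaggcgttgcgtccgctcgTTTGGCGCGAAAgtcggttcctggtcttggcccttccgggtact

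The Cdc45 window held 4 CCAAT letters, on alternating strands from 146 to 74 bases before the start, and no E2F letters as spelled here. In Gins1 the E2F letters overlapped on both strands, from 25 to 14 bases before the start, with CCAAT letters at 241 and 39 bases. Gins3 held all 3 elements, with E2F letters 36 bases, CHR letters 23 bases and CCAAT letters 139 bases before the start. Topbp1 carried overlapping E2F letters from 44 to 33 bases before its first start, and in Tipin they began 31 bases before the start. Over the 9 genes, 4 had E2F letters, 5 CCAAT and 3 CHR, Topbp1 holding the last 2 kinds only before the last of its starts, and over all 33469 RefSeq windows of the same length the shares were 1.73%, 34% and 17.4%. A gene was counted for letters before any of its starts, whereas the shares count single windows, so these measures differ. Called and uncalled genes were on both sides: of the 4 with E2F letters, Gins1 and Gins3 were called and Topbp1 and Tipin were not. A match is a run of letters, and no binding was measured here.

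The genes around these in the same pathway were taken from 5 lists, of which 41 of 43 genes were found on the array. Of the 41, 17 were called higher and 0 lower, with a median log2 ratio of 0.83, and the number fell to 9 without preparation 1. The MCM2-7 helicase, the ring that CDC45 and GINS join, had all 6 subunits called, with a median of 2.35. Mcm5 had a ratio of 3.61 (SE 0.32), Mcm6 of 2.34 (SE 0.37), and Mcm3 of 3.08 (SE 0.40), although a second Mcm3 probe gave 0.95.

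Origin licensing, which loads that ring, had 2 of 9 genes called and a median of 0.76. These were Orc6, a subunit of the origin recognition complex, at 1.80 (SE 0.37), and Gmnn, the licensing inhibitor geminin, at 1.29 (SE 0.32). The Gmnn probe was well above background on only 4 of the 6 arrays. Cdt1, the loader that geminin blocks, had a ratio of 0.83 (SE 0.32) and was not called.

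Of the other firing and fork factors 2 of 14 were called, and the median was 0.49. Timeless, whose product pairs with TIPIN, had a log2 ratio of 2.50 (SE 0.33) beside the 0.58 (SE 0.41) of Tipin itself. Ticrr, known as treslin, which works with TOPBP1 in loading CDC45, had 1.77 (SE 0.43) from preparations 1 and 3 and was called, whereas Donson, another factor in helicase assembly, had 0.75 (SE 0.32) and was not.

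Polymerase epsilon, polymerase alpha and primase had 4 of 8 genes called and a median of 0.96, led by p by Pola2 at 2.39 (SE 0.39), Prim1 at 2.93 (SE 0.57) and Prim2 at 2.15 (SE 0.59). These last belong to the polymerase alpha and primase complex that starts each new strand and that WDHD1 tethers. The S phase cyclins Ccna2 (2.68, SE 0.47), Ccne1 (2.07, SE 0.55) and Ccne2 (1.21, SE 0.40) were called, and their kinase Cdk2 had a ratio of -0.17 (SE 0.44). That list had 3 of 4 genes called and a median of 1.64, and its Ccna2 probe was well above background on 5 of the 6 arrays.

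**Figure D4:**
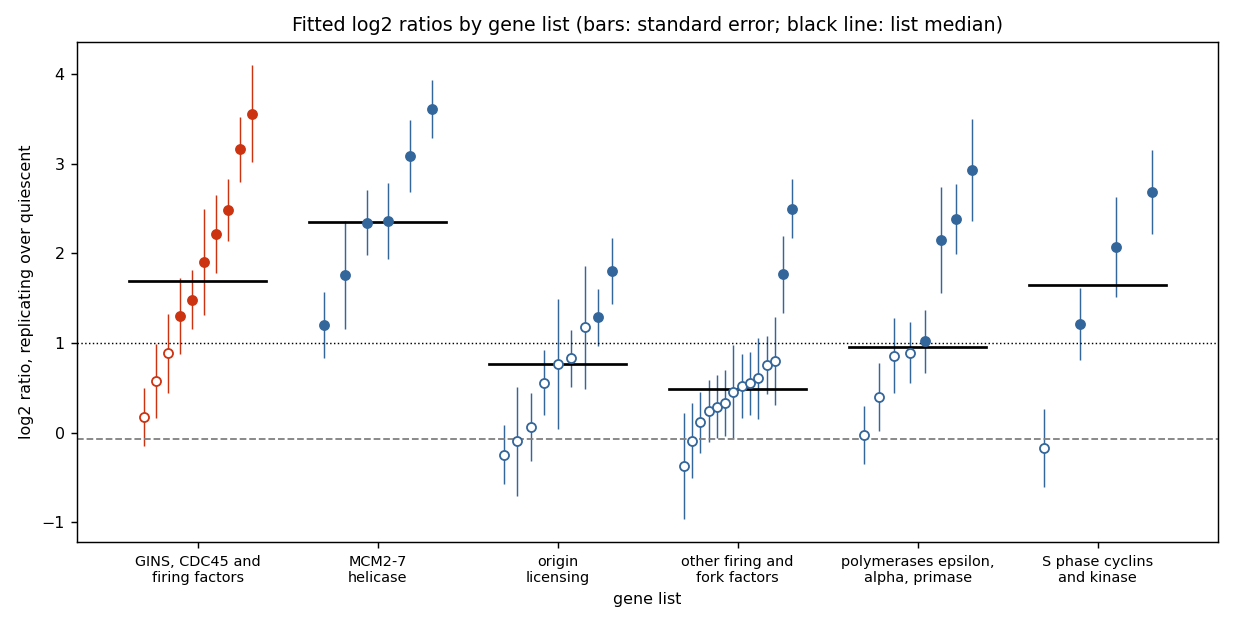
Fitted log2 ratio of replicating over quiescent β-cells (vertical axis) for the 10 genes and the 5 pathway lists (horizontal axis), filled points called higher, bars the standard error, black lines list medians and the dashed line the median of all probes (-0.07). The medians run from 0.49 for other firing and fork factors to 2.35 for MCM2-7, with 1.69 for the 10 genes.

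Each gene was set against the mean of the other genes over the 6 arrays, or over 5 arrays for Gins4, which also left the mean on quiescent array 2 without it. Pearson's r was lowest for Topbp1 (0.63) and highest for Wdhd1 (0.99), with Cdc7 at 0.96 and Cdc45 at 0.96. Among 14646 other named genes well above background on every array, those closest to the mean profile of the 10 were Foxc2 and Mybl1 (r of 0.999 each), Plod3 and Oaz1 (0.997 each) and Slc25a10 (0.996), and 665 genes had an r of at least 0.9. These are descriptions over 6 arrays that fall into 2 groups, so any gene that differs evenly between the groups scores high.

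Markers of other cell types also moved with the groups. Of 12 fibroblast and stellate cell markers 5 were called higher (Col1a2, Col3a1, Col6a3, Vim and Mgp), all 12 had ratios above 0 with a median of 1.28, and their summed level was 15820.0 to 45022 on the replicating and 6419 to 7187 on the quiescent arrays. Of 5 alpha cell markers 2 were called higher, with sums of 22978 to 90826 and 5893 to 17593, and glucagon (Gcg) had a ratio of 2.32 (SE 0.46). Of 4 delta cell markers 2 were called higher, somatostatin (Sst, 1.70, SE 0.53) and Rbp4 (1.46, SE 0.35), whereas Ghsr had -0.96 (SE 0.47), and the sums of 2055 to 2909.7 and 1825 to 4220.2 overlapped. Ghsr was the brightest delta marker on quiescent arrays 1 and 2, at 10.94 and 11.89 in log2. Sst, Rbp4 and Hhex were each higher in the replicating sample of every preparation. Pancreatic polypeptide (Ppy), the PP cell marker, was called higher at 1.24 (SE 0.32), with sums of 4113 to 8409 and 1735 to 3362. Of 6 immune cell markers 2 were called higher, Cd68 (1.29, SE 0.35) and Cd74 (1.46, SE 0.40), and all 6 had ratios above 0, with overlapping sums of 3791 to 6038 and 2357 to 5106. Aif1 was the brightest immune marker on quiescent array 2, at 11.68 in log2 against 10.24 on replicating array 2. Ptprc, Cd68, Cd74, Csf1r and Lyz2 were each higher in the replicating sample of every preparation. Of the others, 1 gene was called higher of 7 acinar markers (Prss1, 1.56, SE 0.54) and of 6 duct markers (Spp1, 2.06, SE 0.37), where the list medians were 0.23 and -0.34, and 0 of 6 endothelial markers were called. The acinar sums were 7960.1 to 83774 and 3916 to 45322, the duct sums 25092 to 29628 and 27773 to 41785, and the endothelial sums 4324 to 9812 and 5129 to 16310.2. These ranges overlapped over the preparations, but within each preparation the direction was the same. The acinar sum was higher in the replicating sample of every preparation, and the duct and endothelial sums were lower. For duct the gap in preparation 3 was small, 27318 against 27773. Mafa, the β-cell transcription factor called lower, had a log2 ratio just past the threshold (SE 0.35). No marker of any list was below background on every array. Their part in the ratios of the origin firing genes was not tested.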

How the data were processed

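RNA of 3 replicating and 3 quiescent samples was amplified and read in 1 dye (Cy3) on Agilent rat arrays of 62976 spots with Feature Extraction 10.7.3.1. The authors deposited the scanner intensity and background of each spot, and log2 values made with normexp and quantile normalization; the offset was not given in the sources used here. Probe positions are on rn4.

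Scanner values were corrected here with normexp (offset 50) and quantile normalized in limma 3.58.1 (R 4.3.3, data.table version 1.17.8). Control spots and outlier spots were left out and spots of a probe averaged. The quiescent array of preparation 2 had 1583 outlier spots, and each of the others had 252 to 299. The deposited log2 values ranked spots as these did (Spearman's rho of 1 on each array) and moved no ratio of the 12 probes of the 10 genes by more than 0.067. No spot was saturated. With 3 arrays a group, their number limits the precision.

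The test was lmFit and eBayes on all 45598 probes with the islet preparation as a block, after the study's paired test and the series design, in which a preparation of 4 rats gave both samples of a number. Deviations from the group means correlated at 0.0573, 0.242 and 0.257 within preparations 1, 2 and 3. Every gene of the group was named with all its probes, and of each pathway list the 3 genes with the smallest p and any called lower (there were none); other genes named, the marker genes and the sequences printed were picked after their values were seen. The genes and lists were chosen with earlier results of these data known. Alternatives were other normexp offsets, 75th percentile scaling of normexp or processed signals, cyclic loess, the deposited values, a filter on dim probes, outlier spots kept, no block, a variance trend, each preparation left out and the median over probes. Ticrr was named through its accession in RefSeq; Dbf4b and Rad9a were not found under these names.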

Additional observations from a re-analysis of the deposited data

How the results depend on the processing

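Over the 14 alternatives the number of the 10 genes called higher stayed at 5 to 7, except without preparation 1. Leaving out 1 preparation gave 3 to 7 called genes, medians of 1.48 to 1.98 and 9 to 19 pathway genes called, the lowest of each without preparation 1. The share of all probes called higher was 1.16% without preparation 1, 3.22% without preparation 2 and 11.6% without preparation 3. Of 140 single-gene values, 129 kept their direction and their side of the threshold, 8 lost the call, 1 gained it (Gins2 without preparation 3, 1.37) and 2 reversed: Topbp1 was -0.81 with processed signals scaled to the 75th percentile and -0.32 with normexp signals scaled so. The median of the 10 genes was 2.25 with a normexp offset of 0, where low signals are compressed less.

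The 75th percentile scaling moved the median of all probes from -0.07 to -0.39 (normexp) and -0.71 (processed), and the share of higher calls among all calls from 50.4% to 21.4% and 17.2%; the median of the 10 genes was then 1.31 and 1.66, and 6 and 5 were called. The share of higher calls was 67.3% without the block and 89.1% without preparation 1. Without the replicate block 7 genes were called, with a median of 1.65, and 16 pathway genes; no call among the 10 genes changed, but over all probes 928 were called lower in place of 2053.

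An adjusted p under 0.05 in limma was reached by Cdc45, Cdc7 and Dbf4 with normexp and 75th percentile scaling (719 of all probes) and without preparation 2 (164), by Cdc45 and Cdc7 with cyclic loess (204) and by Cdc45 without the block (102); the other alternatives gave 0 of the 10 genes, with 72 probes called under a variance trend and 30 with only probes well above background. Gins1 was the gene whose call was lost most often, under 4 alternatives.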
